A study of Drosophila melanogaster with 9 samples.

Results

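The comparison set ph+E(z) RNAi against control RNAi in Kc167 cells, an embryonic Drosophila melanogaster line with features of hemocytes, the blood cells of the fly. Its members are all genes with at least 0.5 FPKM (fragments per kilobase, relative to all mapped fragments) in at least 3 of its 6 libraries, which gave 8566 of 14797 genes. The filter counts libraries of both groups together, and 77 members passed it only through ph+E(z) libraries and 30 only through control libraries. There were 3 libraries of cells given dsRNA against ph and E(z) and 3 of cells given a control dsRNA, whose target the labels do not name. Every culture received dsRNA at 15 µg and was collected on day 7, and a further group of 3 libraries, in which CtBP was targeted as well, entered only the estimate of spread. The labels do not say whether replicates were separate cultures, so p values reflect only the spread among the libraries at hand, which may be technical. No label or file gives read numbers, so depth is unknown.

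Polycomb group proteins keep developmental genes silent in cells where those genes are not used. Polycomb repressive complex 2, with E(z) as its enzyme, methylates lysine 27 of histone H3, and Polycomb repressive complex 1, of which Polyhomeotic is a subunit, acts at the same genes. Their best known targets are the homeotic (HOX) genes and many other genes for patterning transcription factors. Kc167 cells express the hemocyte GATA factor gene srp and the hemocyte genes Hml, Pxn and He. Mhc of muscle, vas of the germline, Lsp2 of fat body and Jon25Bi of gut lay at 0.413 FPKM or less in each of the 6 libraries. These were picked as single examples and do not stand for their marker lists. Summed over each list, FPKM per library ran from 252 to 646 for muscle and from 82.3 to 90.0 for germline. For fat body the sums ran from 11.1 to 19.0 and for gut from 72.8 to 97.9. The neuron marker elav was not near 0, at 8.81, 11.6 and 12.2 FPKM with ph+E(z) RNAi, against 4.18, 9.86 and 10.6 FPKM in control libraries.

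Among the 9 libraries, the one labelled control replicate 1 stood apart. Of 94 called genes named below, 90 were also called without it, the exceptions being tup, Doc2, gsb-n and klu, and all 94 kept their direction. Leaving it out moved their log2 changes by a median of 0.0793, and by more than 0.5 for Psc, Su(z)2 and pnr. The SD of its log2 difference from its group's other libraries was 1.01, while that of the remaining 8 libraries lay between 0.467 and 0.657. Its share of FPKM in cytosolic ribosomal protein genes was 41.2%, and in the remaining libraries 27.4% to 31.9%. Its difference from control replicates 2 and 3 followed transcript length. The median was 0.357 on the log2 scale in the 1975 genes with the shortest transcripts and -0.523 in the 1972 with the longest. The ph+E(z) replicate 1 showed a smaller gradient of the same sign against replicates 2 and 3, from a median of 0.137 to one of -0.124. Across the comparison, the median change ran from -0.114 in the shortest of these groups to 0.189 in the longest with all libraries, and from 0.000218 to -0.00852 without the library labelled control replicate 1. In lists of values below, replicates 1, 2 and 3 of a group follow in that order, so the first control value always belongs to that library. Changes are log2 differences of FPKM + 0.5, ph+E(z) over control, with their SE, and p values are adjusted over all 8566 genes.

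**Figure D1:**
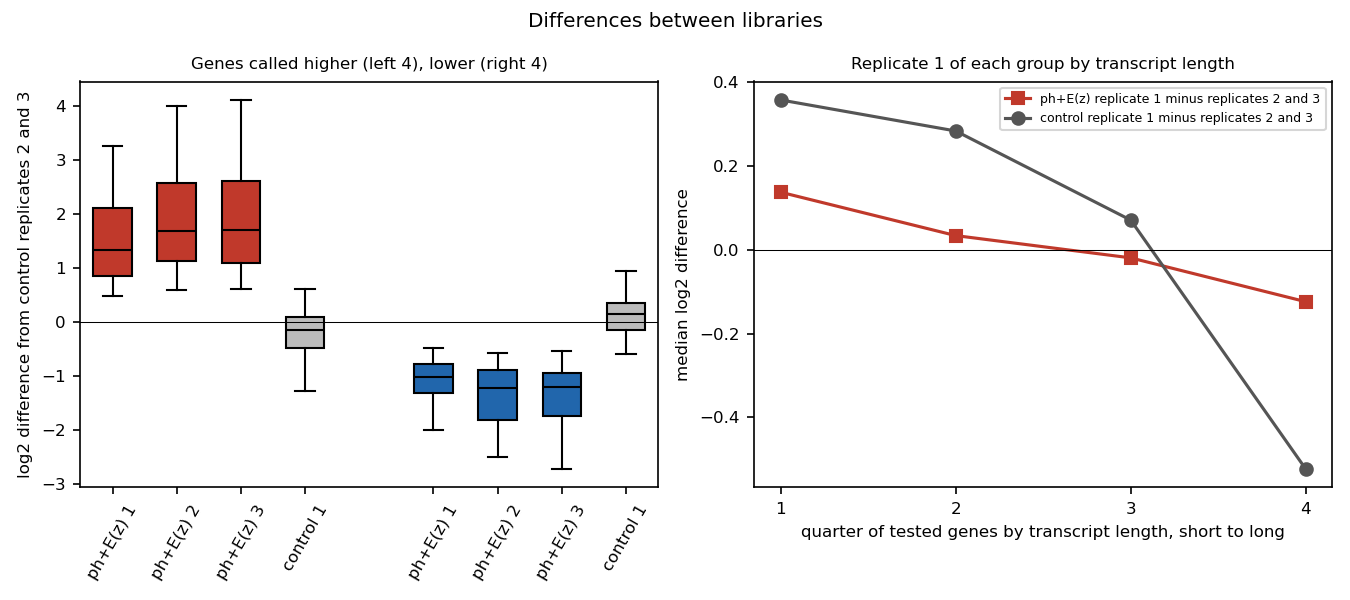
Left, log2 differences of 4 libraries from the mean of control replicates 2 and 3 for the 227 genes called higher and the 118 called lower (box, quartiles; line, median; whiskers, 5th to 95th percentile); control replicate 1 sits near 0 for both. Right, the median log2 difference of replicate 1 from replicates 2 and 3 of its own group in 4 equal groups of genes by transcript length, with the steeper fall in the control library.

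Of the targeted genes, E(z) measured 12.1, 8.81 and 8.29 FPKM with ph+E(z) RNAi, against 43.4, 37.4 and 31.2 FPKM in control libraries. It fell by 1.90 ± 0.18 (adjusted p = 0.000998), and by 1.78 (adjusted p = 0.00114) with the library labelled control replicate 1 omitted. The ph-p gene measured 7.15, 8.02 and 7.28 FPKM with ph+E(z) RNAi, against 4.64, 18.9 and 18.1 FPKM in control libraries. The library labelled control replicate 1 thus lay below all 3 treated libraries and went against its label for ph-p, while for E(z) it was the highest of the 6. The change of ph-p was -0.62 ± 0.46 (adjusted p = 0.479) with all libraries and -1.25 (adjusted p = 0.00548) without that library. The adjacent and near-identical ph-d measured 4.21, 4.62 and 4.91 FPKM with ph+E(z) RNAi, against 1.26, 5.72 and 4.87 FPKM in control libraries, and reads of the pair may be split between them.

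Over all members 345 genes passed the test (4.03%), 227 higher (2.65%) and 118 lower (1.38%). Without the library labelled control replicate 1, 632 passed (7.38%), 375 higher (4.38%) and 257 lower (3.0%). These shares are the background for every list count below, and a short list with no calls lies near them. The calls with and without it shared 216 higher and 113 lower genes. Genes that rose were mostly low in control cells, with a median of 17.6 FPKM with ph+E(z) RNAi and 4.17 FPKM with control RNAi. Of the 227, 50 lay below 0.5 FPKM in every control library, so they entered only through treated libraries and were bound to rise. Genes that fell had a median of 7.72 FPKM with ph+E(z) RNAi and 18.4 FPKM with control RNAi. Changes reached 8-fold for 32 genes that rose and 2 that fell. The groups did not overlap for 27.0% of tested genes, and for 46.6% without the library labelled control replicate 1. The count of calls was 192 without control replicate 2, 170 without control replicate 3, and 309, 113 and 125 when ph+E(z) replicate 1, 2 or 3 was omitted. It was 265, 262 and 402 without replicates 1, 2 and 3 of the group that also received CtBP dsRNA. Under every one of these 9 omissions, 90 of the higher and 22 of the lower genes kept their call. In the authors' deposited table, 773 of the tested genes had a q-value under 0.05 (9.02%). They held 264 of the 345 genes called here, which is 76.52% of those calls and 34.15% of the authors' genes. Calls outside the authors' set included abd-A, Antp, Abd-B, Optix and disco, with q-values from 0.217 for Antp to 0.618 for disco.

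**Figure D2:**
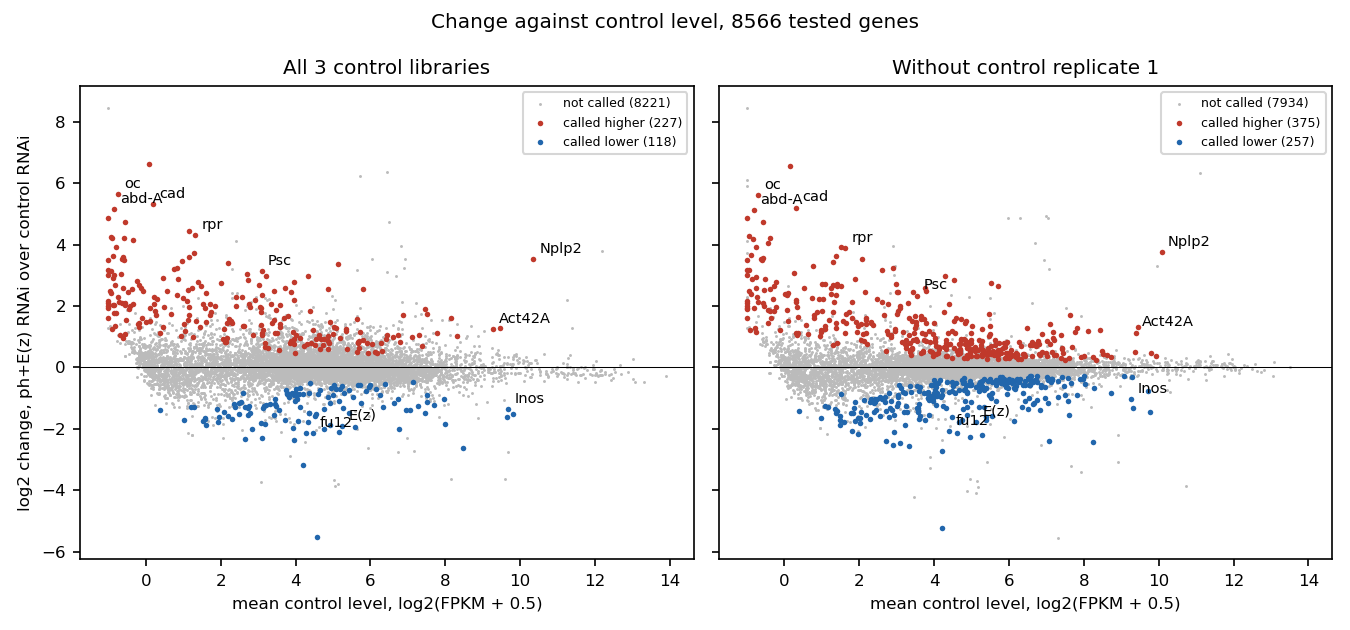
Log2 change (ph+E(z) RNAi over control RNAi) of 8566 genes against their mean control level on a log2 scale, with all 3 control libraries (left) and without the library labelled control replicate 1 (right); red, called higher; blue, called lower. Most of the largest rises lie at the low end of control levels, Nplp2 is an abundant exception, and calls number 345 on the left and 632 on the right.

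The HOX genes, which set segment identity, had 5 of 8 members tested and all 5 rose. Of these, abd-A (FBgn0000014) measured 10.5, 25.0 and 26.9 FPKM with ph+E(z) RNAi, against 0.0275, 0.135 and 0 FPKM in control libraries. Antp measured 4.64, 12.6 and 14.2 FPKM with ph+E(z) RNAi, against 0.0326, 0 and 0.0330 FPKM in control libraries. In both, and in Abd-B and Ubx, ph+E(z) replicate 1 lay well below replicates 2 and 3. All 4 passed the filter only through treated libraries. Dfd was present in control cells and evenly raised, at 18.9, 19.9 and 21.5 FPKM with ph+E(z) RNAi, against 2.77, 5.92 and 5.77 FPKM in control libraries. Changes ran from 2.02 ± 0.29 for Dfd to 5.16 ± 0.36 for abd-A with all libraries, and from 1.70 to 5.13 without the library labelled control replicate 1, and all 5 calls held under each of the 9 omissions. The noncoding gene iab-4, which lies between abd-A and Abd-B and was named after its values were seen, was listed at 0 in all control libraries and measured 1.06, 1.77 and 1.43 FPKM with ph+E(z) RNAi. Of the untested members, lab reached 0.759 FPKM, pb 0.311 FPKM and Scr 0.142 FPKM in their highest ph+E(z) library.

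Some genes that pattern the head, trunk and tail of the embryo were also called. Of 25 segmentation and terminal patterning factors 8 were tested, 5 of them only through treated libraries, and 5 rose and 0 fell. This count of 5 was 2 without ph+E(z) replicate 2 or 3. Of the genes that rose, oc, btd, opa and gsb-n were members by their treated libraries alone and so bound to rise, and cad was not. The head homeobox gene oc (FBgn0004102, chromosome X, 8630159 to 8650681) measured 19.1, 36.3 and 36.0 FPKM with ph+E(z) RNAi, against 0.0635, 0.158 and 0.0687 FPKM in control libraries. The posterior homeobox gene cad (FBgn0000251, chromosome 2L, 20770731 to 20783135) measured 29.3, 51.9 and 55.2 FPKM with ph+E(z) RNAi, against 0.446, 1.06 and 0.422 FPKM in control libraries. For both genes the 2 groups lay far apart, with ph+E(z) replicate 1 the lowest treated library. The changes were 5.64 ± 0.30 for oc and 5.32 ± 0.30 for cad (adjusted p = 0.000136 each), and 5.60 and 5.21 without the library labelled control replicate 1 (adjusted p = 0.000219 and 0.000224). The head gap gene btd rose by 2.50 ± 0.40 and the pair-rule gene opa by 1.62 ± 0.26, to 1.52 to 3.41 FPKM and 0.821 to 1.31 FPKM. Neither call held once ph+E(z) replicate 2 or 3 was omitted (adjusted p up to 0.0677 for btd and 0.0717 for opa), while without the library labelled control replicate 1 they changed by 2.49 and 1.62 (adjusted p = 0.0179 and 0.0199). The fifth, gsb-n, was called with an adjusted p = 0.0451 and held under 0 of the 9 omissions. The salivary gland and gut factor gene fkh, already at 14.1, 45.5 and 42.5 FPKM in control libraries and named after its values were seen, was called only without the library labelled control replicate 1 (1.02, adjusted p = 0.00058).

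Eye, wing and leg regulators formed another group. Of 8 retinal determination factors 6 were tested and 3 rose, dac, tsh and Optix, of which dac and Optix were members by their treated libraries alone and so bound to rise. The eye and leg gene dac (chromosome 2L, 16466512 to 16485998) measured 4.94, 8.13 and 8.22 FPKM with ph+E(z) RNAi, against 0.128, 0.159 and 0.161 FPKM in control libraries, a change of 3.52 ± 0.23 (adjusted p = 0.00019, and 0.000424 without the library labelled control replicate 1). The homeobox gene Optix varied most among treated libraries, at 2.93, 10.8 and 16.8 FPKM with ph+E(z) RNAi, against 0.0473, 0 and 0.182 FPKM in control libraries, and rose by 3.94 ± 0.54 (adjusted p = 0.00579, and 0.0108 without that library). The zinc finger gene tsh rose by 2.58 ± 0.30 (adjusted p = 0.00312, and 0.00532 without it), and its paralog tio changed by 1.07 ± 0.28 without passing (adjusted p = 0.0778). The Pax6 gene toy, on chromosome 4, was already abundant in control cells, and its 45.1, 42.6 and 44.8 FPKM with ph+E(z) RNAi, against 15.7, 35.1 and 36.3 FPKM in control libraries, did not pass (adjusted p = 0.262). The phosphatase gene eya passed only without the library labelled control replicate 1 (1.06, adjusted p = 0.0195).

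Of 28 limb and sensory organ factors 11 were tested, 8 of them only through treated libraries, and 7 rose and 0 fell. All 7 that rose were among those 8 and so bound to rise. The BTB domain gene rib (FBgn0003254, chromosome 2R, 19270078 to 19281396), required in trachea and salivary glands, measured 10.8, 23.3 and 21.7 FPKM with ph+E(z) RNAi, against 0.214, 0.171 and 0.173 FPKM in control libraries. It rose by 4.72 ± 0.32 (adjusted p = 0.000195, and 4.75 with 0.000453 without the library labelled control replicate 1). The dorsal wing selector ap rose by 3.61 ± 0.33, the zinc finger genes disco and peb by 3.15 ± 0.39 and 2.55 ± 0.28, and the disco paralog disco-r by 3.02 ± 0.37. These 4 changes were 3.57, 3.16, 2.55 and 2.94 without the library labelled control replicate 1. Each of these genes kept its call under all 9 omissions, with an adjusted p of at most 0.0258. The wing gene vg (2.09 ± 0.34) and the LIM homeobox gene Lim1 (2.02 ± 0.34), named with disco-r after their values were seen, lost the call when ph+E(z) replicate 2 or 3 was omitted (adjusted p up to 0.0768 and 0.0838), Lim1 also without control replicate 2 or 3. Without the library labelled control replicate 1, the Iroquois gene mirr was also called higher (1.12, adjusted p = 0.0077) and sd, the DNA-binding partner of vg, lower (-0.43, adjusted p = 0.0401). With all libraries these were 1.70 (adjusted p = 0.0697) and -0.08 (adjusted p = 0.881).

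**Figure D3:**
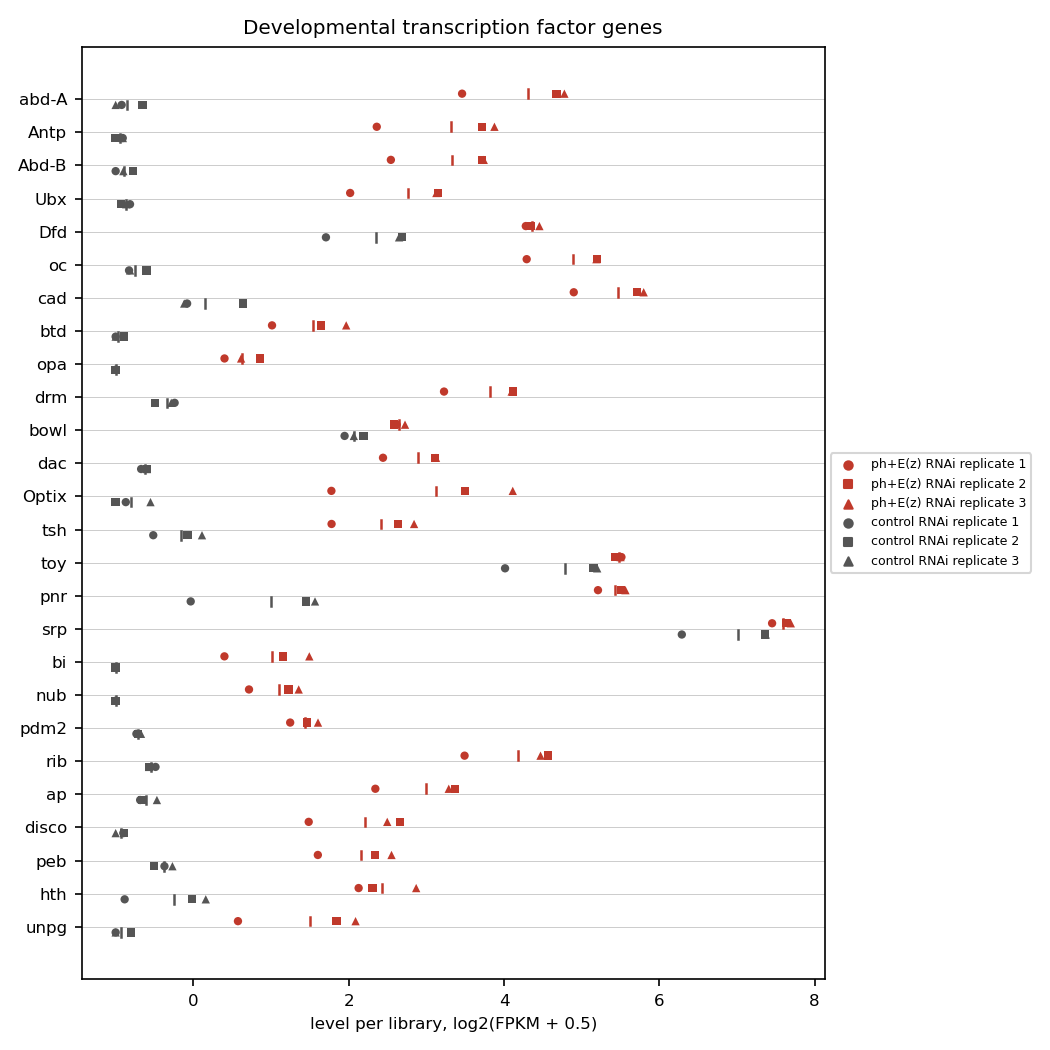
Level per library, log2(FPKM + 0.5), of 26 developmental transcription factor genes, with ph+E(z) libraries in red above control libraries in grey; symbols mark the replicate and short lines the group mean. The groups do not overlap for any of the 26 genes shown, against 27.0% of all tested genes. Most of the 26 were picked because they were called, so this follows largely from the choice. GATAd, ush, acj6 and pdm3 of the same lists, which are not shown, have groups that overlap. Control libraries of most genes shown sit near the floor of the scale, and toy, srp and bowl, which did not pass the test, lie high or close together.

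Within transcription factor families, members differed. Of those described next, drm, nub, pdm2, bi, unpg and tup were members by their treated libraries alone, which bound them to rise. Of 4 tested GATA factor and cofactor genes, pnr alone was called. It measured 36.5, 45.1 and 46.8 FPKM with ph+E(z) RNAi, against 0.477, 2.23 and 2.46 FPKM in control libraries, and rose by 4.43 ± 0.39 (adjusted p = 0.000866, and 3.92 with 5.99e-05 without the library labelled control replicate 1). The hemocyte GATA gene srp stood at 175, 198 and 206 FPKM with ph+E(z) RNAi, against 77.7, 164 and 165 FPKM in control libraries (0.59 ± 0.27, adjusted p = 0.296), and its cofactor ush changed by 0.40 ± 0.30 (adjusted p = 0.478). GATAd changed by 0.99 ± 0.67 with all libraries and by 0.02 without the library labelled control replicate 1 (adjusted p = 0.454 and 0.901). The odd-skipped family gene drm measured 8.87, 16.8 and 16.6 FPKM with ph+E(z) RNAi, against 0.346, 0.212 and 0.321 FPKM in control libraries (4.15 ± 0.27, adjusted p = 0.000169, and 4.2 with 0.000343 without the library labelled control replicate 1), while its relative bowl changed by 0.57 ± 0.18 (adjusted p = 0.141). The neighbouring POU genes nub and pdm2 rose by 2.1 ± 0.24 and 2.15 ± 0.23 (adjusted p = 0.00272 and 0.00211, and 0.00615 and 0.00455 without the library labelled control replicate 1), to 1.14 to 2.06 FPKM and 1.87 to 2.54 FPKM. The POU genes acj6 and pdm3 did not pass. Among T-box genes bi rose by 2.02 ± 0.28 (adjusted p = 0.00668, and 0.0136 without the library labelled control replicate 1), and the call of Doc2 (adjusted p = 0.0431) was lost without all libraries except ph+E(z) replicate 1, including the one labelled control replicate 1 (0.0648). Of the nervous system and mesoderm homeobox factors, hth, which encodes a DNA-binding partner of HOX proteins, measured 3.87, 4.45 and 6.81 FPKM with ph+E(z) RNAi, against 0.0418, 0.489 and 0.617 FPKM in control libraries (2.68 ± 0.39, adjusted p = 0.00792, and 2.36 with 0.0101 without the library labelled control replicate 1). The homeobox gene unpg rose by 2.44 ± 0.37 (adjusted p = 0.00943, and 0.0583 with ph+E(z) replicate 2 omitted). The LIM homeobox gene tup was called with all libraries (adjusted p = 0.0397) and not without the one labelled control replicate 1 (0.0583), and kept its call only without ph+E(z) replicate 1.

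Of the Polycomb group, 2 of 21 tested genes rose, the neighbours Psc and Su(z)2. Both encode ring finger proteins of Polycomb repressive complex 1. Psc measured 43.8, 65.4 and 70.5 FPKM with ph+E(z) RNAi, against 1.67, 11.3 and 11.2 FPKM in control libraries. Its rise was 3.15 ± 0.59 with all libraries and 2.34 (adjusted p = 0.000624) with the library labelled control replicate 1 omitted, where it was lowest. Neither call held when ph+E(z) replicate 2 or 3 was omitted (adjusted p up to 0.106 for Psc and 0.12 for Su(z)2), and Su(z)2 also failed when ph+E(z) replicate 1 was omitted, or replicate 1 or 2 of the group that also received CtBP dsRNA. Of 22 tested trithorax group genes, which oppose Polycomb, limma called 0 with or without the library labelled control replicate 1. The shares called over all tested genes were 4.03% and 7.38%, and a list this short can have no calls at such shares. The median change of the trithorax group genes was 0.158, and -0.061 without that library, against -0.00303 and -0.000655 over all genes.

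Hemocyte genes followed. Of 23 tested plasmatocyte markers 7 rose and 1 fell, with a median change of 1.01, and without the library labelled control replicate 1 it was 8, 1 and 0.90. In these bulk cultures a change in the number of cells of a type and a change in RNA per cell cannot be told apart. The 7 rises became 3 when control replicate 2 or 3 was omitted, and 2 when ph+E(z) replicate 2 or 3 was. Summed over the list, FPKM came to 11437, 21318 and 21762 in ph+E(z) libraries, against 2859, 2645 and 2674 in control libraries. The neuropeptide-like precursor gene Nplp2 made up 80.0%, 85.9% and 85.9% of it in ph+E(z) libraries, against 61.4%, 39.4% and 42.0% in control libraries. That gene measured 9149, 18303 and 18688 FPKM with ph+E(z) RNAi, against 1754, 1043 and 1124 FPKM in control libraries, and rose by 3.52 ± 0.35 (adjusted p = 0.0013, and 3.76 with 0.000986 with the library labelled control replicate 1 omitted). Of the Nimrod family, whose members include phagocytosis receptors, nimB4 measured 33.7, 68.3 and 66.6 FPKM with ph+E(z) RNAi, against 7.02, 5.32 and 5.81 FPKM in control libraries. It rose by 3.05 ± 0.27 (adjusted p = 0.000807, and 3.16 with 0.000882 without the library labelled control replicate 1). The surface protein gene He rose by 1.02 ± 0.17 (adjusted p = 0.014) and nimC1 by 1.45 ± 0.23 (adjusted p = 0.0129), but omitting control replicate 2 ended the first call, omitting control replicate 3 the second, and omitting ph+E(z) replicate 2 or 3 both (adjusted p up to 0.0802). With the library labelled control replicate 1 omitted they were 1.2 and 1.43 (adjusted p = 0.000545 and 0.0173). The clotting factor gene Hml measured 219.6, 300.3 and 312 FPKM with ph+E(z) RNAi, against 8.06, 173 and 164 FPKM in control libraries, and did not pass with or without the library labelled control replicate 1 (adjusted p = 0.319 and 0.156). The phagocytic receptor gene eater passed only without that library, in which it lay at 0.0991 FPKM, against 7.60 and 6.93 FPKM in the other control libraries (1.19, adjusted p = 0.0199).

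Of 9 tested crystal cell and lamellocyte markers 3 rose, all 3 having passed only through treated libraries and encoding transcription factors. They were the zinc finger genes peb and klu and the Runx gene lz, a crystal cell determinant at 1.17, 1.84 and 2.07 FPKM with ph+E(z) RNAi, against 0.276, 0.444 and 0.412 FPKM in control libraries. The call of lz (1.30 ± 0.23, adjusted p = 0.0193) was lost when replicate 2 or 3 of either group was omitted, and klu kept its call only without replicate 3 of the group that also received CtBP dsRNA. Without the library labelled control replicate 1, 4 were called, klu no longer and the filamin gene cher and the lamellocyte surface gene atilla in addition. Markers of other tissues gave few calls. There were 0 among 6 neuron, 7 muscle, 9 germline, 2 fat body and 2 gut markers, and 1 of 6 trachea and epidermis markers fell, the chitinase gene Cht2. Without the library labelled control replicate 1, 2 muscle markers were called, Zasp52 and TpnC41C. Summed FPKM of the neuron list ran from 349 to 475 in ph+E(z) libraries, against 97.1 to 407 in control libraries, and of the muscle list from 635 to 646 against 252 to 614, with the library labelled control replicate 1 lowest in both. The germline sums ran from 85.2 to 90.0 against 82.3 to 90.0, the fat body sums from 12.4 to 18.6 against 11.1 to 19.0 and the gut sums from 89.4 to 97.9 against 72.8 to 87.0. Genes of these lists at 0 in all 6 libraries were sls of muscle, Lsp1alpha and Lsp1gamma of fat body, and alphaTry, betaTry and Jon25Bii of gut. Their part in the results was not tested.

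Genes of peptidoglycan recognition, which starts the Imd and Toll immune pathways, gave 4 rises and 1 fall among 12 tested. The receptor gene PGRP-LC (chromosome 3L, 9338810 to 9348336) measured 20.3, 28.5 and 30.5 FPKM with ph+E(z) RNAi, against 1.27, 1.86 and 2.1 FPKM in control libraries. Its neighbour PGRP-LA measured 15.0, 16 and 17.2 FPKM with ph+E(z) RNAi, against 1.47, 0.994 and 1.40 FPKM in control libraries. The changes were 3.58 ± 0.24 and 3.22 ± 0.20 (adjusted p = 0.000195 and 0.00016), and 3.42 and 3.30 without the library labelled control replicate 1. The third gene of this cluster, PGRP-LF, whose product inhibits the Imd receptor, rose by 1.45 ± 0.21 (adjusted p = 0.00703), and all 3 calls held under the 9 omissions. The remaining rise, of a gene outside the rule for named genes, was 0.48 ± 0.11 (adjusted p = 0.048) and held under 2 of the 9. PGRP-LD fell by 0.82 ± 0.16 (adjusted p = 0.0283), and only the omission of a library with CtBP dsRNA or of the one labelled control replicate 1 left that call in place. Of 17 Toll and Imd signalling genes 2 rose, the inhibitor cact and the receptor gene Tl. The cact gene measured 268, 424 and 429 FPKM with ph+E(z) RNAi, against 74.6, 139 and 133 FPKM in control libraries (1.71 ± 0.31, adjusted p = 0.0205, and 1.42 with 0.0179 without the library labelled control replicate 1), and lost its call without ph+E(z) replicate 2 or 3 (adjusted p up to 0.102). Tl rose by 1.13 ± 0.22 (adjusted p = 0.0276), which did not hold when control replicate 3, any ph+E(z) library, or replicate 2 of the group that also received CtBP dsRNA was omitted. Of 6 tested antimicrobial peptide and lysozyme genes, the antifungal peptide gene Drs was called higher (1.31 ± 0.23, adjusted p = 0.0193) and LysX lower (-0.54 ± 0.12, adjusted p = 0.0442). Neither held when control replicate 2 or 3 or a ph+E(z) library was omitted, and LysX also failed without replicate 2 of the group that also received CtBP dsRNA.

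Cell death genes gave 4 rises among 13 tested, with a list median of -0.00534, and 1 rise, rpr, when ph+E(z) replicate 2 or 3 was omitted. The activator rpr (FBgn0011706, chromosome 3L, 18397535 to 18398435), which blocks caspase inhibitors, measured 42.5, 43.2 and 49.3 FPKM with ph+E(z) RNAi, against 0.775, 2.49 and 2.68 FPKM in control libraries. It rose by 4.30 ± 0.37 (adjusted p = 0.00071, and 3.88 with 0.000224 without the library labelled control replicate 1). Its neighbour W (hid), of the same activator family, measured 7.03, 7.73 and 8.995 FPKM with ph+E(z) RNAi, against 2.58, 2.11 and 2.87 FPKM in control libraries (1.48 ± 0.26, adjusted p = 0.0199), a call lost without replicate 2 or 3 of either group. The TNF receptor gene wgn rose by 0.90 ± 0.15 (adjusted p = 0.0154, not held with ph+E(z) replicate 2 or 3 omitted) and the caspase gene dream (Strica) by 0.52 ± 0.12 (adjusted p = 0.0459, held under 2 of the 9 omissions).

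Among signalling genes the changes were scattered. The FGF ligand gene pyr measured 10.5, 14.5 and 16.1 FPKM with ph+E(z) RNAi, against 0.300, 1.5 and 1.73 FPKM in control libraries, and rose by 3.2 ± 0.38 (adjusted p = 0.00329, and 2.73 with 0.000545 without the library labelled control replicate 1). The PDGF and VEGF related ligand gene Pvf2 fell by 1.02 ± 0.16, to 133, 119 and 113 FPKM with ph+E(z) RNAi, against 295, 224 and 226 FPKM in control libraries (adjusted p = 0.00977), a call lost without ph+E(z) replicate 2 or 3. Its relative Pvf3 lay at 0.916 FPKM in the library labelled control replicate 1, against 10.7 and 11.8 FPKM in control replicates 2 and 3, and was called lower only without it (-1.44, adjusted p = 0.00235). The BMP ligand gene dpp rose by 1.52 ± 0.28 and the ETS factor gene Ets21C fell by 0.78 ± 0.14 (adjusted p = 0.0222 and 0.0193). Both calls were lost when replicate 2 or 3 of either group was omitted, and that of dpp also when ph+E(z) replicate 1 was. None of 15 Notch, 12 JAK-STAT, 17 Wnt, 19 insulin and TOR, and 14 ecdysone response genes was called by limma with all libraries, against 4.03% of all tested genes. Lists this short can have no calls at such a share, so this is no result about the pathways. With the library labelled control replicate 1 omitted, Apc and nkd of the Wnt pathway and Sesn were called higher and EcR and br of the ecdysone response lower.

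Secreted and surface proteins included several abundant genes. Of 5 tested imaginal disc growth factor genes, which encode secreted chitinase-like proteins, Idgf1, Idgf2 and Chit (Idgf6) were called higher and 0 lower. Idgf2 measured 56.7, 91.0 and 88.1 FPKM with ph+E(z) RNAi, against 11.1, 14.9 and 11.7 FPKM in control libraries (2.58 ± 0.39, adjusted p = 0.00971, and 2.50 with 0.0162 without the library labelled control replicate 1), a call lost without ph+E(z) replicate 2 or 3 (adjusted p up to 0.0593). The calls of Idgf1 (adjusted p = 0.0422) and Chit (0.0175) were lost under more omissions, and the list held 0 to 3 calls when libraries other than the one labelled control replicate 1 were left out, against 4 without that library. The adhesion gene Fas3 measured 5.08, 5.35 and 5.85 FPKM with ph+E(z) RNAi, against 0.335, 0.309 and 0.404 FPKM in control libraries (2.80 ± 0.35, adjusted p = 0.00415, and 2.79 with 0.00736 without the library labelled control replicate 1). Of 12 tested basement membrane and matrix genes the perlecan gene trol, like Fas3 a member only through treated libraries, rose by 2.01 ± 0.30 (adjusted p = 0.0083, and 0.054 with ph+E(z) replicate 2 omitted). The collagen IV gene Cg25C (Col4a1) fell by 1.29 ± 0.26, to 46.5, 27.6 and 27.3 FPKM with ph+E(z) RNAi, against 81.4, 83.6 and 77.8 FPKM in control libraries. Its call (adjusted p = 0.0329) did not hold when replicate 2 or 3 of either group was omitted, nor without replicate 2 of the group that also received CtBP dsRNA. The cytoplasmic actin gene Act42A rose by 1.25 ± 0.19, to 1469, 1484 and 1439 FPKM with ph+E(z) RNAi, against 519, 669 and 664 FPKM in control libraries (adjusted p = 0.00935, and 0.0577 with ph+E(z) replicate 2 omitted).

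Cytochrome P450 genes, which oxidise hormones and foreign compounds, gave 7 rises and 1 fall among 41 tested, with or without the library labelled control replicate 1, and 3 or 4 rises when replicate 2 or 3 of either group was omitted. Cyp6a8 measured 290, 341 and 344 FPKM with ph+E(z) RNAi, against 63.1, 55.1 and 47.9 FPKM in control libraries (2.55 ± 0.18, adjusted p = 0.000227, and 2.65 with 0.000318 without that library). Cyp4ac3, a member only through treated libraries, rose by 3.05 ± 0.39 to 2.2, 6.53 and 6.77 FPKM, and Cyp28d1 fell by 1.70 ± 0.25 to 3.54, 3.96 and 3.19 FPKM, against 14.6, 11 and 12.6 FPKM in control libraries. Their changes were 2.90 and -1.60 without that library. Among 33 glutathione transferase genes GstE2 was called higher (adjusted p = 0.0252) and GstE9 lower (0.0239). That is 3.03% each way, near the 2.65% higher and 1.38% lower of all tested genes. GstE9 measured 5.80, 2.28 and 3.51 FPKM with ph+E(z) RNAi, against 31.3, 13.8 and 12.1 FPKM in control libraries. Omitting replicate 2 of either group or ph+E(z) replicate 3 ended its call, and that of GstE2 ended when control replicate 3, any ph+E(z) library, or replicate 1 or 2 of the group that also received CtBP dsRNA was omitted.

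Of 17 tested lipid metabolism genes 2 fell, fu12 and LpR2, and 0 rose. The gene fu12 (Agpat2; FBgn0026718, chromosome 2L, 8449691 to 8463994), an acyltransferase of phospholipid synthesis, measured 5.91, 3.86 and 4.17 FPKM with ph+E(z) RNAi, against 23.9, 19.6 and 21.9 FPKM in control libraries. It fell by 2.13 ± 0.21 (adjusted p = 0.00123, and by 2.06 with 0.00241 without the library labelled control replicate 1). Its call held under all 9 omissions. Outside this list Cct1 (Pcyt1), of phosphatidylcholine synthesis, fell by 1.12 ± 0.17 (adjusted p = 0.00863, not held with ph+E(z) replicate 2 or 3 omitted), and within it the lipoprotein receptor gene LpR2 fell by 1.02 ± 0.19 (adjusted p = 0.0223, lost without replicate 2 or 3 of either group). The inositol phosphate synthase gene Inos measured 320.1, 291 and 290.5 FPKM with ph+E(z) RNAi, against 1218, 603 and 628 FPKM in control libraries. Its fall was 1.36 ± 0.29 (adjusted p = 0.041) with all libraries and 1.03 (adjusted p = 0.0232) with the library labelled control replicate 1 omitted, and its call held only without that library or replicate 3 of the group that also received CtBP dsRNA. Of 17 glycolysis genes limma called 0 with all libraries, and their median change was -0.816. In the library labelled control replicate 1 the list lay a median of 0.878 above control replicates 2 and 3. With that library omitted 8 were called lower, among them Gapdh1, Pgi, Pfk and Eno, and the median was -0.585. With any other library left out 0 or 1 was called.

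**Figure D4:**
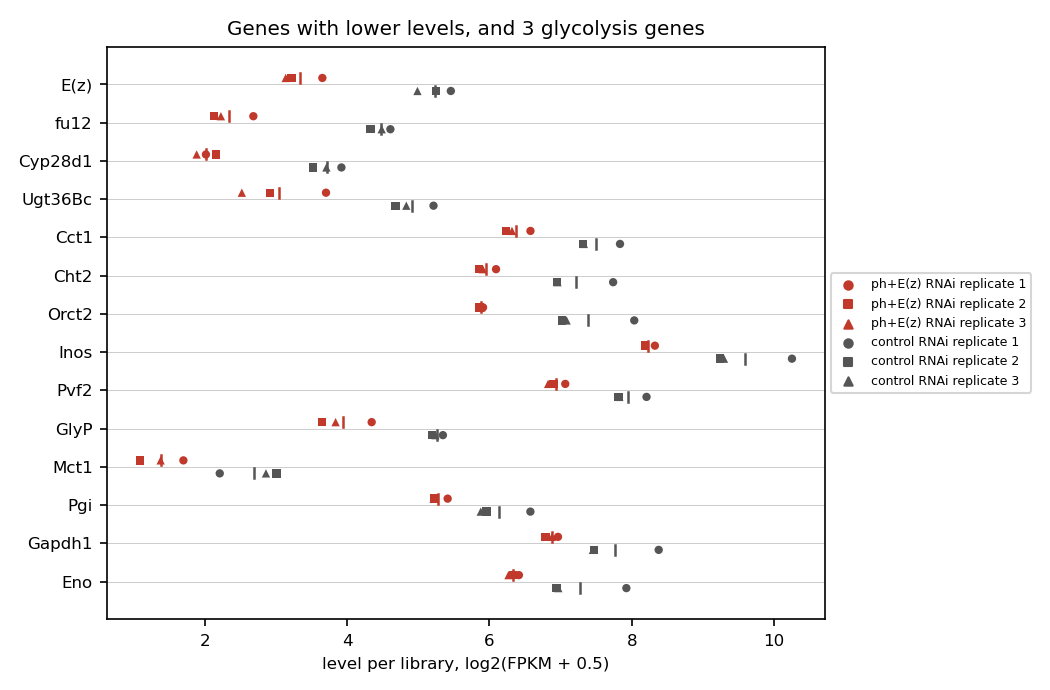
Level per library, log2(FPKM + 0.5), of 11 genes that fell and of the glycolysis genes Pgi, Gapdh1 and Eno, with ph+E(z) libraries in red above control libraries in grey; GlyP and Mct1 were chosen after their values were seen. For the 3 glycolysis genes the library labelled control replicate 1 (grey circle) lies well above the other control libraries.

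Leaving out the library labelled control replicate 1 altered the calls or the median of other lists too. Cytosolic heat shock proteins had 0 of 18 called with all libraries, by limma, and 3 lower without it, Hsp68, stv and Hsp70Ba. Their median change was -0.409 with that library and -0.453 without it, so the calls moved and the median hardly did. Hsp68 measured 17.1, 11.9 and 11.3 FPKM with ph+E(z) RNAi, against 14.3, 41.0 and 41.5 FPKM in control libraries, so that library lay within the treated range. Of 88 cytosolic ribosomal protein genes 0 were called either way, and their median change was -0.184 with it and 0.0354 without it. The 72 mitochondrial ribosomal protein genes gave -0.164 and 0.0399, and the 32 proteasome genes -0.212 and 0.00091, also with 0 called. On chromosome 4, 50 of 54 tested genes had a positive change with a median of 0.732 and 0 were called with all libraries, while that library lay a median of 1.71 on the log2 scale below control replicates 2 and 3. Without it the median was 0.12, 41 genes were positive and 3 were called higher.

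When the library labelled control replicate 1 was left out, 159 genes gained a call as higher and 144 as lower, and 11 lost one as higher and 5 as lower. It lay above both other control libraries for 104 of the 159 and below both for 94 of the 144. Of the named genes in this class, the RNA-binding gene cpo measured 5.67, 13 and 13.3 FPKM with ph+E(z) RNAi, against 0.397, 3.24 and 2.71 FPKM in control libraries. It was called higher without that library (1.60, adjusted p = 0.048) and missed the threshold with it (2.25 ± 0.56, adjusted p = 0.0693). The ecdysone response gene br measured 11.8, 9.17 and 8.08 FPKM with ph+E(z) RNAi, against 9.01, 30.5 and 27.8 FPKM in control libraries. Its change was -1.56 (adjusted p = 0.0281) with the library labelled control replicate 1 omitted and -1.01 ± 0.47 (adjusted p = 0.312) with it.

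**Figure D5:**
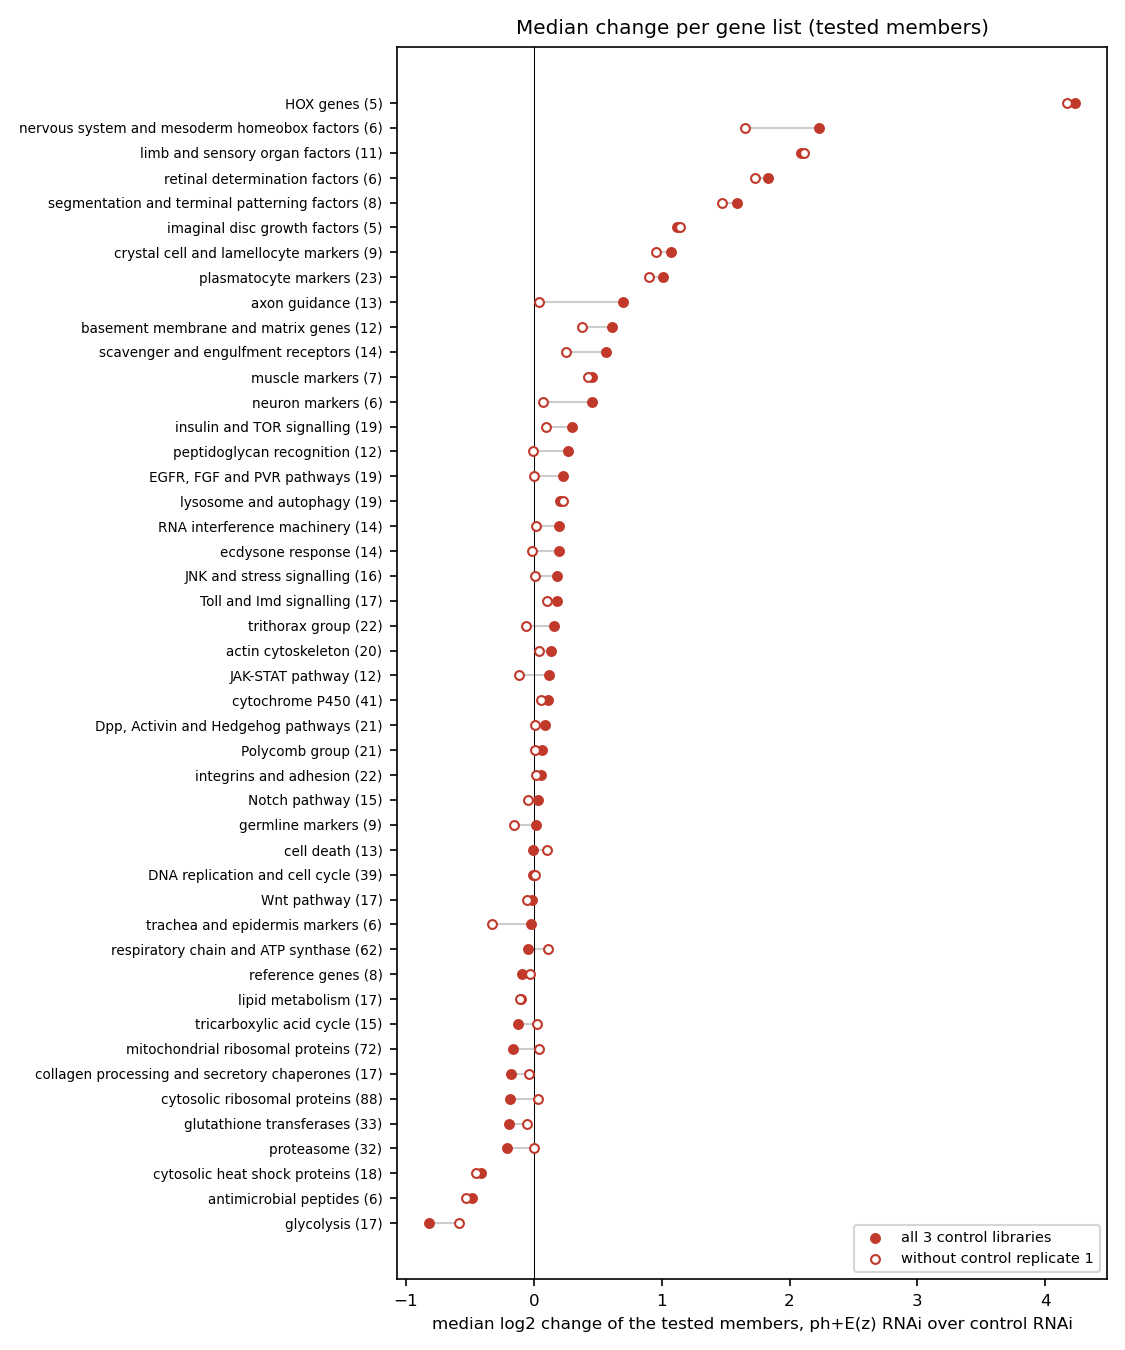
Median log2 change, ph+E(z) RNAi over control RNAi, of the tested members of each list with at least 5 of them (number in brackets), with all libraries (filled) and without the library labelled control replicate 1 (open). HOX genes sit highest at 4.23 and glycolysis lowest at -0.816, and the axon guidance list moves from 0.701 to 0.038 when that library is left out. Of the tested members, 4 of 5 HOX genes, 8 of 11 limb factors and 5 of 8 segmentation factors passed only through treated libraries. These were bound to rise, so the medians of their lists follow in part from the filter.

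Of the genes known by a CG number in the deposited file, CG13936 (CNMa), which encodes the neuropeptide CNMamide, had the largest change of all calls. It measured 51.7, 132 and 161 FPKM with ph+E(z) RNAi, against 0.474, 0.609 and 0.616 FPKM in control libraries, a mean of 114.9 ± 56.7 FPKM against 0.567 ± 0.0799 FPKM (SD, n = 3 each) and a change of 6.61 ± 0.41 (adjusted p = 0.00016, and 0.000367 without the library labelled control replicate 1). The splicing regulator gene fus rose by 3.73 ± 0.25, to 21.1, 37.9 and 38.2 FPKM with ph+E(z) RNAi, against 1.56, 2.32 and 1.88 FPKM in control libraries (adjusted p = 0.00019, and 3.62 with 0.000367 without the library labelled control replicate 1). The small nucleolar RNA gene snoRNA:Psi28S-3316a was listed at 0 in all 3 ph+E(z) libraries, against 33.7, 18.1 and 18.3 FPKM in control libraries. In the opposite sense snoRNA:Psi28S-3385a was listed at 0 in all 3 control libraries and at 23.0, 11.1 and 11.1 FPKM with ph+E(z) RNAi. A value of 0 in such short genes can be a failed estimate.

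Among genes placed on the dm6 annotation, 208 of the higher calls and 113 of the lower had a position on a chromosome arm. An adjacent tested gene was also called higher for 61 of the 208, or 29.33%, against 4.995% of all 7888 placed genes. For lower calls an adjacent lower call occurred for 9 of 113, or 7.965%, against 2.852% of all. Without the library labelled control replicate 1 these shares were 104 of 346, or 30.06%, against 8.316% of all for higher calls, and 26 of 240, or 10.83%, against 6.009% for lower calls. The higher calls formed 25 runs of at least 2 neighbours. The run with the most members was nimB3, nimB4, nimB5, He, nimC1 and Cyp28a5 within 12.1 kb of 2L, where the spans of nimB5 and He overlap and their shared reads cannot be told apart. Ubx, abd-A, iab-4 and Abd-B formed a run over 315.6 kb of 3R, and Ama, Dfd and Antp one over 236.6 kb. Others joined PGRP-LA, PGRP-LC and PGRP-LF, nub and pdm2, Idgf1 and Idgf2, and W and rpr. Of these run members, Ubx, abd-A, iab-4, Abd-B, Antp, nimB3, nub and pdm2 entered only through treated libraries and so were bound to rise. The neighbour shares include such genes and were not computed without them. The tandem genes KP78a and KP78b, whose spans overlap, and the aquaporin genes Drip and CG7777 (Prip) with CG7763, which lies within the span of Drip, were further runs, and these run members were named after their values were seen. Per chromosome arm, calls higher ranged from 1.88% of tested genes on 3L to 4.09% on 2L, with 0 of 54 on chromosome 4. They ranged from 3.1% on X to 6.07% on 2L, with 5.56% on chromosome 4, when the library labelled control replicate 1 was left out.

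The 3 treated libraries did not differ from control to the same extent over the called genes. Over the higher calls, the median log2 difference from control replicates 2 and 3 was 1.34 in ph+E(z) replicate 1, 1.68 in replicate 2 and 1.70 in replicate 3, and -0.14 in the library labelled control replicate 1. Over the lower calls the medians were -1.01, -1.22 and -1.21, and 0.15 in that control library. The ph+E(z) replicate 1 was the treated library nearest to control for 72.69% of higher and 70.34% of lower calls. The genes were called from these same values, and the share over all tested genes was not computed. The E(z) level was also highest in that replicate among the 3, at 12.1 FPKM, while ph-p at 7.15 FPKM and ph-d at 4.21 FPKM were lowest there. The part of the knockdown in these differences was not tested.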

How the data were processed

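The authors deposited FPKM values per gene and library, and their own q-values (adjusted p-values) for this comparison. Per the submitters' processing notes, TopHat2 2.1.0 and Bowtie2 2.2.6 aligned reads to dm6, Cufflinks and Cuffdiff gave FPKM, and R 3.2.3 was used. The scaling of FPKM between libraries, the annotation and the strandedness are not stated there. Overlapping genes can therefore share reads, and 40.75% of members share a deposited locus with another gene. Deposited positions differ from the dm6 reference annotation, so coordinates come from that annotation by FlyBase identifier, and newer symbols follow in brackets.

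The values log2(FPKM + 0.5) were compared by limma 3.58.1 (R 4.3.3), in 1 fit of 9 libraries with 3 group means, moderated with a mean-variance trend and adjusted by Benjamini-Hochberg with a threshold of 0.05. The pseudocount of 0.5 makes changes of low genes smaller than their ratios. The fit was checked on simulated data, with independent noise of the same spread in every library for a given gene. The simulated data hold no outlying library, so the check cannot show how the fit behaves with the one labelled control replicate 1. Lists were described by counts and medians, with no set test. The rule for named genes took the knockdown targets, the HOX genes, the largest changes each way, the best called members of each list, abundant called genes and genes called only without the library labelled control replicate 1. One gene that the rule takes is not reported here. Genes outside the rule were named after their values were seen: gsb-n, fkh, mirr, sd, vg, Lim1, disco-r, cher, atilla, Zasp52, TpnC41C, Hml, Apc, nkd, Sesn, EcR, stv, Hsp70Ba, the glycolysis genes, iab-4 and the members of neighbour runs. The members, the 53 lists and this rule were chosen with earlier results of these data known. Alternatives covered the pseudocount, filter, scaling, moderation, library weights, fits of 2 groups, a replicate block and each left-out library.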

Additional observations from a re-analysis of the deposited data

How the results depend on the processing

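The 5 HOX calls held under every alternative run. Of these genes, abd-A, Antp, Abd-B and Ubx were members by their treated libraries alone and so bound to rise, and Dfd was not. The 345 calls ranged from 113 to 632 with a library left out, the 227 higher from 91 to 375 and the 118 lower from 22 to 257. A fit of the 2 groups alone gave 224 calls and 70 lower, and without the library labelled control replicate 1 it gave 869, 488 higher and 381 lower. Library weights gave 2973, 1508 and 1465. The cause was not tested in these cases. Deviations of same-numbered control and ph+E(z) libraries correlated at 0.243, 0.0782 and 0.174, and those of differently numbered ones at -0.207 to 0.144. The labels give no pairing, and these values do not settle whether replicate numbers pair the libraries. With the replicate number as a block 240 genes were called, 176 higher and 64 lower, and 259 (179 and 80) without the library labelled control replicate 1, against 632 without the block. Scaling without ribosomal protein genes gave 199 higher and 175 lower, against 227 and 118. Directions turned for ph-d, at -0.19 without the library labelled control replicate 1 and in the 2-group fit without it, and at -0.14 with the block without that library and with library weights. Over left-out libraries ph-d ran from -0.19 to 0.72, Pvf3 from -1.44 to 0.12 and PQBP-1 from -1.44 to 0.012.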

Other observations

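Some further genes were named after their values were seen. They include transporters and enzymes of sugar and glycogen use, which were picked from the lower calls and are no test of such a group. The glycogen phosphorylase gene GlyP measured 19.8, 12 and 13.8 FPKM with ph+E(z) RNAi, against 40.2, 35.9 and 37.3 FPKM in control libraries (-1.32 ± 0.24, adjusted p = 0.0211, and -1.27 with 0.0278 without the library labelled control replicate 1). The maltase gene CG30359 (Mal-A5) fell by 1.24, the trehalose transporter gene CG30035 (Tret1-1) by 1.66, the sugar transporter gene sut1 by 0.87 and the monocarboxylate transporter gene Mct1 by 1.30, with adjusted p between 0.0183 and 0.0264. Each of these 5 calls was lost when replicate 2 or 3 of either group was omitted, that of CG30035 also without ph+E(z) replicate 1 (adjusted p up to 0.121). In the opposite direction Pepck, of gluconeogenesis, rose by 2.36 ± 0.40 (adjusted p = 0.0163, lost without ph+E(z) replicate 2 or 3 at up to 0.0816), to 21.1, 57.4 and 60.8 FPKM with ph+E(z) RNAi, against 5.22, 9.40 and 9.45 FPKM in control libraries. The lactate dehydrogenase gene ImpL3 (Ldh) measured 189, 75.9 and 77.7 FPKM with ph+E(z) RNAi, against 1474, 465 and 499.6 FPKM in control libraries, and did not pass (-2.75 ± 0.65, adjusted p = 0.0574, and 0.0737 without the library labelled control replicate 1).

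The aquaporin genes Drip and CG7777 (Prip), which encode water channels, rose by 2.41 ± 0.44 and 2.97 ± 0.29. The call of Drip (adjusted p = 0.0211) was lost when control replicate 2 or 3 or a ph+E(z) library was omitted. CG7777 measured 112, 184 and 183 FPKM with ph+E(z) RNAi, against 20.1, 19.0 and 19.3 FPKM in control libraries (adjusted p = 0.00114). The ion channel gene pain measured 22.4, 29.1 and 29.3 FPKM with ph+E(z) RNAi, against 4.21, 3.18 and 3.22 FPKM in control libraries (2.76 ± 0.16, adjusted p = 0.000136, and 2.88 with 5.99e-05 without the library labelled control replicate 1). The chromatin gene corto rose by 2.60 ± 0.23 and the ARID domain gene retn by 2.91 ± 0.41 (adjusted p = 0.000798 and 0.00683, and 0.00143 and 0.0124 without the library labelled control replicate 1), both being members only through treated libraries. CG7777, pain, corto and retn kept their calls under all 9 omissions.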
